A study of Mus musculus with 16 samples.

Results

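The intestinal epithelium supplies intraepithelial lymphocytes, the T cells that live between its cells, with a small set of signals. The 9 genes described here, called the members, were followed across 16 RNA-seq libraries: the butyrophilin-like genes Btnl1, Btnl2, Btnl4 and Btnl6, the cytokine Il15 and its presenting receptor Il15ra, the adhesion genes Cdh1 and Epcam, and the homing chemokine Ccl25. They were chosen by name and all 9 were found among the 55359 genes of the deposited table. The mice carried a floxed Neurog3, whose product commits intestinal progenitors to the enteroendocrine lineage. Mutants were Neurog3f/f; Villin-CreERT2 animals, in which a recombinase driven by the epithelial Villin promoter becomes active with tamoxifen. Controls were Neurog3f/f animals without the recombinase. All 8 animals (4 per genotype) were adult males of the C57BL/6N background on a standard diet, sampled 18 weeks after tamoxifen, and each gave 1 library of ileum and 1 of duodenum. The labels do not say separately that controls received tamoxifen, and they do not state which layers of the gut wall were taken. Effects of the transgene or of recombinase activity cannot be told apart from loss of Neurog3 in these groups.

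As background, small-intestinal intraepithelial lymphocytes in the mouse are held by paired signals. Btnl1 forms heteromers with Btnl6 on enterocytes, and these are read by T cells whose receptor uses the gamma segment encoded by Tcrg-V7. The cytokine encoded by Il15 is loaded on the Il15ra protein and shown to the Il2rb and Il2rg chains of the lymphocyte. Cdh1 encodes E-cadherin, the ligand of the integrin made of Itgae and Itgb7, and Ccl25 encodes the ligand of the homing receptor Ccr9. Epcam encodes an epithelial adhesion protein that stabilises claudins, among them the product of Cldn7.

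Total counts ran from 8213889 to 35076714 per library. Neurog3 had 0 counts in all 8 mutant libraries and between 8 and 37 counts in the 8 control libraries. Transcripts of epithelial and of intraepithelial lymphocyte genes were both present in the samples. The 15 epithelial marker genes summed to between 9950 and 18800 CPM (counts scaled to a common library size). The 17 intraepithelial lymphocyte genes summed to between 32.1 and 363 CPM. Bulk RNA does not show whether transcripts of these or of the lymphocyte receptors came from cells within the epithelium. A list of 25 pancreatic acinar genes took 2.78 to 22.4% of the counts in duodenal mutant libraries and 8.46 to 18.0% in duodenal control libraries, against at most 1.34% in the ileum. The list includes Zg16, at 3610 CPM on average in ileal mutants and 2870 CPM in ileal controls, where the whole list averaged 7280 and 8160 CPM. Zg16 averaged 3900 CPM in duodenal mutants and 3690 CPM in duodenal controls, so the ileal share cannot be read as acinar content alone. The duodenal library of mutant NFVCT190 stood apart, with the highest acinar share and the lowest epithelial marker sum of all 16, and the ileal library of mutant NFVCT27 had more lymphocyte transcript than the other ileal mutants. For some genes and lists only, results by genotype or tissue are given with and without either library, while correlations include both. In bulk tissue, fewer cells of a type and less RNA per cell cannot be told apart.

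Per length of transcript, the members spanned a wide range of levels in the same order of magnitude in both genotypes. Levels were set on the scale of CPM per kilobase of annotated exon. Epcam was highest, at 766 ± 80.1 in ileal mutants, 766 ± 70.1 in ileal controls, 616 ± 117 in duodenal mutants and 552 ± 25.8 in duodenal controls (SD, n = 4 each). Cdh1 and Btnl6 came next and did not differ beyond their spread: in ileal controls Cdh1 stood at 178 ± 19.8 and Btnl6 at 170 ± 9.81, and in duodenal controls at 155 ± 25.1 and 184 ± 23.2. Btnl1 followed with 78.3 ± 6.25 in ileal mutants, 92.5 ± 11.6 in ileal controls, 119 ± 39.7 in duodenal mutants and 141 ± 21.7 in duodenal controls. Ccl25, Btnl2 and Btnl4 lay between 20.6 and 58.3 in the group means, and the order among them changed with the tissue. Il15 (3.83 to 5.94) and Il15ra (1.14 to 1.95) were lowest. The exon length of Ccl25 (7445 bases) is long for this set, which lowers its per-length level.

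The 4 butyrophilin-like genes lie together on chromosome 17 beside the class II genes H2-Eb1, H2-Eb2 and H2-Ea, in the order Btnl2, Btnl1, Btnl4, Btnl5-ps, Btnl6 and Btnl7-ps. Their sequences just before the transcription start are shown because those of Btnl4 and Btnl6 are close copies. Whether this likeness bears on their levels was not tested, and the sharing of transcript sequence, which concerns the counting, is given below. The 160 bases before each start follow, read 5′ to 3′ on the gene's strand, from RefSeq on build GRCm38.p6. Capitals mark the letters CAAAGTCC, as found in sites of HNF4-type factors; these letters were chosen after the sequences had been seen.
Btnl2, chr17:34354662-34354821, plus strand: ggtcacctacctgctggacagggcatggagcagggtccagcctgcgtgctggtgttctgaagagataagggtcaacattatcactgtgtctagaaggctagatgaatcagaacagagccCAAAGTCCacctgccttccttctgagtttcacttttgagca
Btnl1, chr17:34376972-34377131, plus strand: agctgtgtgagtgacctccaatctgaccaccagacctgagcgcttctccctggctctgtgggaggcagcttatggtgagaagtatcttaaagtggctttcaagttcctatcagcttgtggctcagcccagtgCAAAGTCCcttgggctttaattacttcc
Btnl4, chr17:34475938-34476097, minus strand: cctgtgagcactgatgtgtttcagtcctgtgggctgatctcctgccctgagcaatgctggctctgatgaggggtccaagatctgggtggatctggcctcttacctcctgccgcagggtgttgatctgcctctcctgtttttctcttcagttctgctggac
Btnl6, chr17:34517353-34517512, minus strand: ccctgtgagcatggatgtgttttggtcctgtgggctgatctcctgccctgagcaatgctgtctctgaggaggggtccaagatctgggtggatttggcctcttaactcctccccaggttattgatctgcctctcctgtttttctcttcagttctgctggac

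Over 250 bases before the start, Btnl4 and Btnl6 were 90.5% identical, while the other 5 pairs among these 4 genes ran from 51.6 to 52.9% identity. The letters CAAAGTCC were searched on both strands of those 250 bases. They stood once before Btnl1, beginning 28 bases before the start, and once before Btnl2, beginning 41 bases before it, and 1.2% of the 32851 RefSeq promoter windows searched hold them. The windows of Btnl4, Btnl6, Il15ra, Ccl25 and Epcam did not hold them. TTTAT, as in CDX-type sites, was in 37.3% of all windows and in those of Btnl1 and Epcam and 1 of 2 of Ccl25. GAAANNGAA, as in interferon response elements, was in 7.13% of all windows and, among the members, in 1 of 2 windows of Il15ra. No promoter entry was used for Il15 and Cdh1. Each match is a description of letters in a window.

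Transcript sequence is also shared within the family, which limits how exactly 2 of the genes can be counted. Of all 50-base windows of Btnl4 transcripts, 13.8% also occur in transcripts of another butyrophilin-like gene, mostly the pseudogene Btnl5-ps, and for Btnl6 the share was 6.58%. At 100 bases the shares were 3.16% and 0.0605%. No such window was shared for Btnl1 or Btnl2. Levels of Btnl4 and Btnl6 are therefore uncertain to the extent that the counting split or dropped reads between copies.

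Btnl1, the common partner in these heteromers, did not pass the test for genotype in either tissue. In the ileum its levels were 245, 280, 232 and 254 CPM in mutants NFVCT27, NFVCT38, NFVCT153 and NFVCT190, against 351, 264, 284 and 294 CPM in controls NF17, NF29, NF32 and NF152. In the duodenum, with the animals in the same order, they were 511, 342, 460 and 224 CPM in mutants and 440, 553, 387 and 437 CPM in controls. The groups overlapped in both tissues, and the duodenal mutants ran from below every control (NFVCT190) to above 3 of the 4. The log2 fold change of mutants over controls was −0.26 in the ileum (SE 0.11, 95% interval −0.49 to −0.03, adjusted p = 0.246) and −0.25 in the duodenum (SE 0.24, interval −0.77 to 0.28, adjusted p = 0.884). Without the duodenal library of NFVCT190 the duodenal value was −0.07.

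Btnl2, a family member described as a brake on T cell activation, showed the smallest p of the 9 members in the ileum. Its ileal levels were 48.7, 61.9, 53.7 and 48.9 CPM in mutants and 81.5, 69.2, 74.3 and 58.9 CPM in controls. Only NF152 among the controls fell within the range of the mutants. The log2 fold change was −0.43 (SE 0.12, interval −0.69 to −0.17), and the adjusted p of 0.0696 missed the threshold of 0.05. The adjusted p was 0.0324 without the ileal library of control NF152, 0.0147 with no filter on low counts and 0.0355 with DESeq2. In the duodenum Btnl2 had 133, 93.3, 135 and 71.3 CPM in mutants and 147, 188, 145 and 124 CPM in controls. The duodenal log2 fold change was −0.48 (SE 0.21, interval −0.94 to −0.02, adjusted p = 0.535), and −0.34 without NFVCT190.

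Btnl4 and Btnl6, the pair with near-identical upstream sequence, overlapped between genotypes in both tissues. Btnl6, the partner of Btnl1, had 259, 285, 205 and 339 CPM in ileal mutants and 275, 307, 292 and 314 CPM in ileal controls. In the duodenum it had 296, 212, 304 and 255 CPM in mutants and 304, 363, 349 and 275 CPM in controls. Its log2 fold change was −0.15 in the ileum (SE 0.13, interval −0.43 to 0.13, adjusted p = 0.653) and −0.28 in the duodenum (SE 0.16, interval −0.62 to 0.06, adjusted p = 0.69). The lowest libraries of Btnl6 were those of NFVCT153 in the ileum and NFVCT38 in the duodenum. Btnl4 had 70.5, 59.0, 43.5 and 78.1 CPM in ileal mutants and 66.7, 81.9, 60.3 and 56.8 CPM in ileal controls. Its duodenal levels were 72.5, 60.7, 67.1 and 73.0 CPM in mutants and 78.5, 74.2, 90.1 and 65.7 CPM in controls. That ileal library of NFVCT153 was the lowest of the 16 for Btnl4 too. Btnl4 had a log2 fold change of −0.10 in the ileum (SE 0.17, interval −0.47 to 0.26, adjusted p = 0.847) and −0.18 in the duodenum (SE 0.12, interval −0.45 to 0.08, adjusted p = 0.779).

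**Figure D1:**
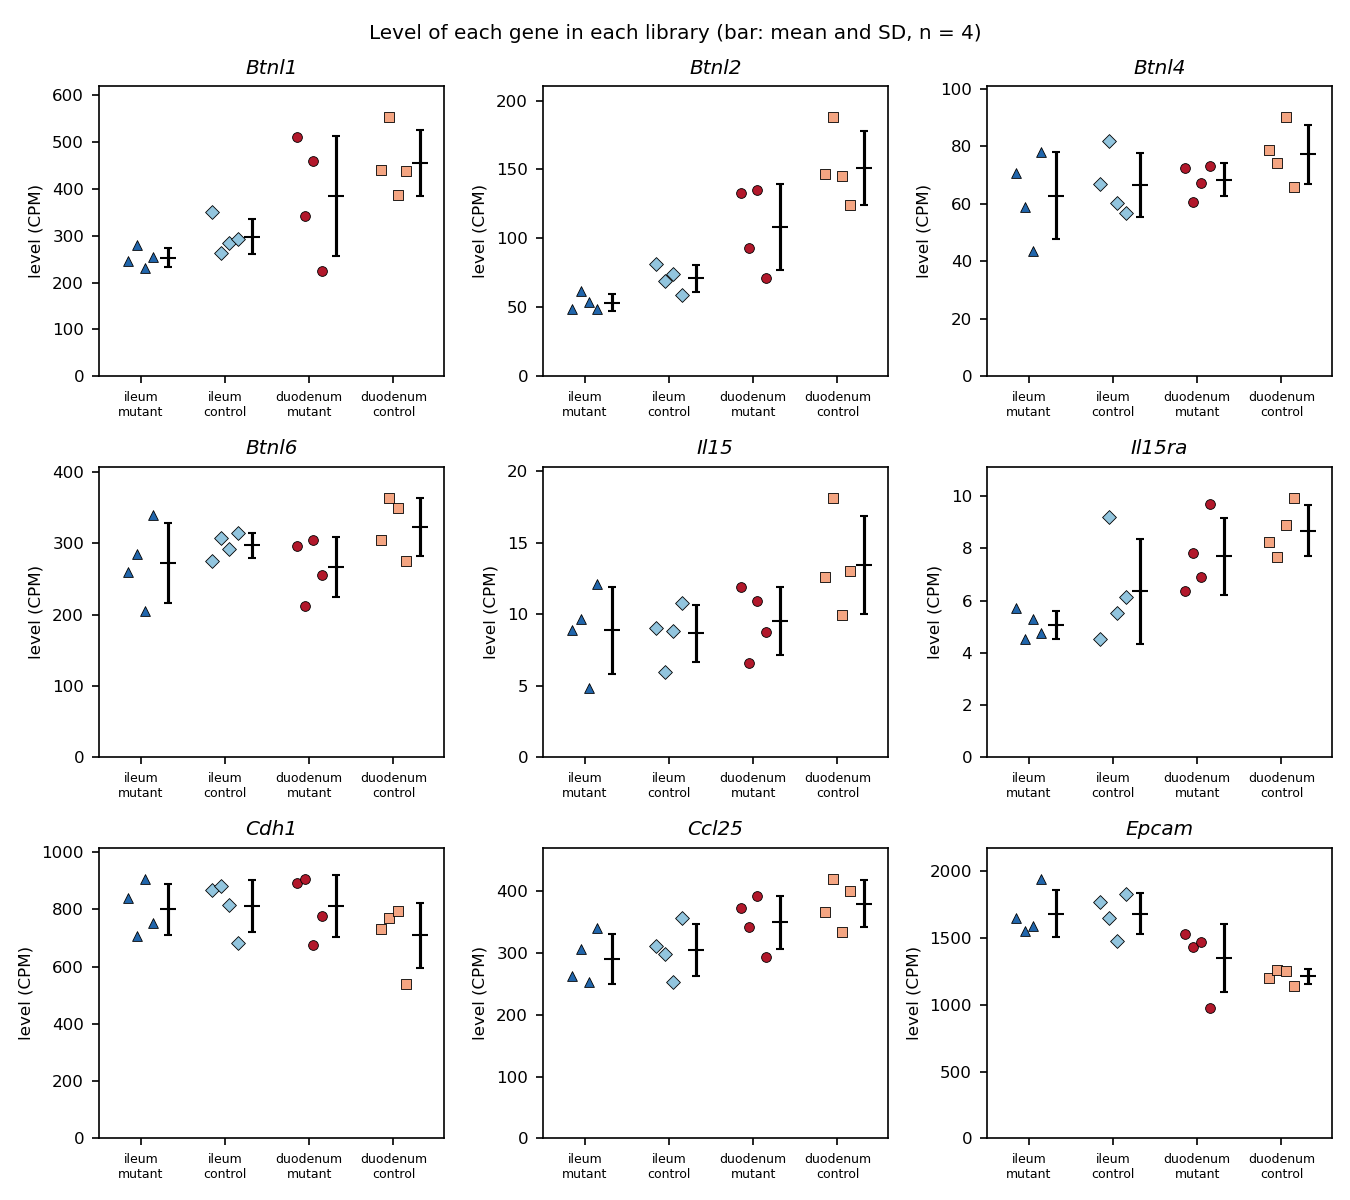
Level in CPM of each of the 9 genes in each library, with ileal mutants, ileal controls, duodenal mutants and duodenal controls from left to right; each point is 1 library and the bar gives the mean and SD of 4. Within each genotype Btnl1 and Btnl2 sit lower in the ileum than in the duodenum, apart from the duodenal library of NFVCT190 for Btnl1, while Btnl4 and Btnl6 overlap across all 4 groups, and no gene separates mutants from controls in either tissue.

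Il15 and Il15ra, the cytokine and the protein that presents it, were the least abundant members, and their counts carry more sampling error. Il15 had 8.89, 9.68, 4.83 and 12.1 CPM in ileal mutants and 9.04, 5.99, 8.81 and 10.8 CPM in ileal controls. Its duodenal levels were 11.9, 6.59, 10.9 and 8.72 CPM in mutants and 12.6, 18.1, 9.93 and 13.0 CPM in controls. Ileal controls lay within the range of the ileal mutants, and in the duodenum 3 of 4 controls lay above every mutant. The log2 fold change was 0.02 in the ileum (SE 0.24, interval −0.50 to 0.54, adjusted p = 0.986) and −0.50 in the duodenum (SE 0.22, interval −0.98 to −0.01, adjusted p = 0.555). Il15ra had 5.73, 4.53, 5.28 and 4.77 CPM in ileal mutants and 4.55, 9.2, 5.54 and 6.16 CPM in ileal controls. In the duodenum it had 6.38, 7.81, 6.9 and 9.71 CPM in mutants and 8.24, 7.67, 8.91 and 9.93 CPM in controls. The 9.2 CPM of NF29 set the upper end of the ileal controls. For Il15ra the log2 fold change was −0.34 in the ileum (SE 0.22, interval −0.81 to 0.13, adjusted p = 0.506) and −0.19 in the duodenum (SE 0.17, interval −0.56 to 0.17, adjusted p = 0.858).

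The adhesion genes Cdh1 and Epcam had ileal fold changes near 0. Cdh1 had 839, 706, 906 and 753 CPM in ileal mutants and 868, 881, 817 and 683 CPM in ileal controls. In the duodenum its levels were 894, 906, 674 and 777 CPM in mutants and 733, 769, 794 and 541 CPM in controls. For Cdh1 the log2 fold change was −0.04 in the ileum (SE 0.12, interval −0.31 to 0.23, adjusted p = 0.929) and 0.19 in the duodenum (SE 0.18, interval −0.21 to 0.59, adjusted p = 0.884). Neither tissue separated the groups. Epcam had 1650, 1550, 1590 and 1940 CPM in ileal mutants and 1770, 1650, 1480 and 1830 CPM in ileal controls. Duodenal Epcam was at 1530, 1430, 1470 and 972 CPM in mutants and 1200, 1260, 1250 and 1140 CPM in controls. In the duodenum 3 mutants lay above every control, and NFVCT190, the library poorest in epithelial markers, lay below. For Epcam the log2 fold change was −0.02 in the ileum (SE 0.12, interval −0.27 to 0.23, adjusted p = 0.965) and 0.15 in the duodenum (SE 0.20, interval −0.29 to 0.59, adjusted p = 0.924). Without NFVCT190 the duodenal value was 0.27, and with libraries scaled to the epithelial markers it was −0.05.

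Ccl25, the chemokine that draws Ccr9-bearing T cells to the small intestine, also overlapped. It had 263, 306, 254 and 340 CPM in ileal mutants and 311, 299, 253 and 357 CPM in ileal controls. Its duodenal levels were 373, 342, 392 and 294 CPM in mutants and 366, 420, 334 and 401 CPM in controls. The log2 fold change was −0.09 in the ileum (SE 0.12, interval −0.35 to 0.17, adjusted p = 0.802) and −0.13 in the duodenum (SE 0.15, interval −0.44 to 0.19, adjusted p = 0.906). Ccl25 overlaps Elavl1 on the opposite strand, and the strand setting of the counting is not given in the sources used here, so some of its reads could belong to that gene.

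Across the list, 0 of the 9 members were called by genotype in the ileum and 0 of 9 in the duodenum with edgeR at an adjusted p under 0.05. Over all genes tested, 3.28% were called in the ileum and 0.394% in the duodenum, so that 0 of 9 is near the background in both. The lower calls alone were 1.51% of genes in the ileum and 0.299% in the duodenum. At an unadjusted p under 0.05 there were 2 members in the ileum (Btnl1 and Btnl2) and 2 in the duodenum (Btnl2 and Il15), all lower in mutants. Over all genes tested, 2356 of 14951 in the ileum and 1280 of 14703 in the duodenum had such a p. For the other lists described below, such counts are given there where edgeR called 0 by genotype. Where edgeR called genes, lymphocyte receptors had 8 of 9 in the ileum and 8 of 10 in the duodenum. Intraepithelial lymphocyte genes had 10 of 17 and 14 of 16, interferon-response genes 13 and 14 of 15, and homing genes 8 and 7 of 17. In the ileum, smooth muscle markers had 9 of 10 and other epithelial signals 5 of 16. Ileal genes tied to Epcam had 4 of 10 and epithelial markers 1 of 15. DESeq2 called 1 in the ileum and 0 in the duodenum, and limma-voom called 0 in each. The median log2 fold change of the members was −0.10 in the ileum and −0.19 in the duodenum, beside −0.01 and 0.00 over all genes. In neither tissue was there a member whose mutant and control libraries did not overlap, whereas 10.1% of all genes in the ileum and 5.75% in the duodenum had groups without overlap. The widest room for a fall was left for Il15 in the duodenum (−0.98) and for Il15ra in the ileum (−0.81).

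The effect of genotype on the members was not shown to differ between tissues. For the difference of the log2 fold changes, ileum minus duodenum, edgeR called 0 of 9 members, with an adjusted p of 1 for each. Of all genes tested, 0.0441% were called. No member had an unadjusted p under 0.05, and DESeq2 and limma-voom called 0. The largest difference was that of Il15, at 0.53 (SE 0.36, interval −0.22 to 1.29), and that of Btnl1 was 0.00 (SE 0.27, interval −0.57 to 0.57).

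Other cell types moved with genotype beside these values. In the ileum 7 of 10 smooth muscle markers were higher in mutants, among them the contractile genes Tagln (log2 fold change 0.70, SE 0.10, adjusted p = 0.00201), Cnn1 (0.92, SE 0.15, adjusted p = 0.00509), Des (0.97, SE 0.17, adjusted p = 0.00942) and Myl9 (0.62, SE 0.13, adjusted p = 0.0179). The list summed to 4760 to 6450 CPM in ileal mutants and 2750 to 3990 CPM in ileal controls, with no overlap. When that sum entered the ileal fit as a covariate, the signs of Btnl4, Btnl6, Il15ra, Ccl25 and Epcam turned positive, with no member called. Over all genes that fit called 21, against 490 without the covariate. Because the sum separates the genotypes, it largely stands for genotype in that fit, and these signs do not show the part of muscle content. In the duodenum 0 of 10 smooth muscle markers were called by edgeR or DESeq2, and 0 had an unadjusted p under 0.05. The epithelial markers summed to 15700 to 18800 CPM in ileal mutants and 14300 to 17400 CPM in ileal controls, and 1 of 15 was called higher there (Krt18, a keratin, 0.57, SE 0.13, adjusted p = 0.0325, called in 2 of 8 fits that left out 1 library). In the duodenum they summed to 9950 to 18000 CPM in mutants and 11000 to 13800 CPM in controls, with 0 of 15 called by edgeR, 2 at an unadjusted p under 0.05 and 1 by DESeq2. The covariate does not test the part of these markers in the members' values, and beyond it only the scaling to epithelial markers was tried.

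Lists of the other cells in the wall held 0 called genes by edgeR in either tissue, and limma-voom called 0 in every list for which edgeR called 0 by genotype. Of 10 myeloid genes, 7 in the ileum and 6 in the duodenum had an unadjusted p under 0.05, and DESeq2 called 4 and 2. The lowest p-values were those of the dendritic cell genes Itgax (−0.44, adjusted p = 0.074) and Cd209a (−1.48, adjusted p = 0.0748) in the ileum and of the lysozyme gene Lyz2 (−0.85, adjusted p = 0.072) and Cd209a (−1.28, adjusted p = 0.122) in the duodenum. B and plasma cell genes had 2 of 8 at an unadjusted p under 0.05 in the ileum, with Sdc1 (−0.27, adjusted p = 0.191) and Ighm (−2.46, adjusted p = 0.288) first, and 1 of 7 in the duodenum, where DESeq2 called Ighm (−0.92, adjusted p = 0.0537 with edgeR). Fibroblast and endothelial genes had 2 of 10 in the ileum, led by Lyve1 (0.42, adjusted p = 0.0653), of which DESeq2 called 1, and 0 of 10 in the duodenum. Enteric neuron and glia genes had 1 of 10 in each tissue and acinar genes 1 of 23 in the ileum and 0 of 25 in the duodenum; DESeq2 called 1 acinar gene in the ileum and nothing else in these 2 lists.

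On the lymphocyte side, 3 of 9 receptor genes tested in the ileum and 2 of 10 in the duodenum were called lower in mutants. The 10 genes listed were the gamma and delta T cell receptor genes, the 2 chains that read IL-15, the 2 chains that bind E-cadherin, the Ccl25 receptor and the signalling receptor Cd244a. For Cd244a no member is given here as a ligand. The ileal calls were Tcrg-C1, a constant segment of the gamma chain (1.44 CPM on average in mutants and 3.64 CPM in controls, log2 fold change −1.30, SE 0.28, adjusted p = 0.0179), Il2rb (5.10 and 9.78 CPM, −0.98, SE 0.22, adjusted p = 0.0228) and Il2rg (2.27 and 4.32 CPM, −0.98, SE 0.23, adjusted p = 0.0305). The duodenal calls were Itgae, the chain that binds E-cadherin (23.6 CPM on average in mutants and 43.6 CPM in controls, −0.89, SE 0.15, adjusted p = 0.0328), and Tcrg-C2, another gamma constant segment (1.82 and 4.62 CPM, −1.34, SE 0.25, adjusted p = 0.0471). The gamma constant segments are close copies of each other, so their split is uncertain.

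The receptors that were not called in the ileum had log2 fold changes of −0.98 for Tcrg-C2, −0.79 for Trdc, −0.75 for Itgae, −0.68 for Itgb7, −0.58 for Cd244a and −0.29 for Ccr9, and Tcrg-V7 had too few counts to be tested. In the duodenum the values were −1.37 for Tcrg-V7, −1.22 for Trdc, −1.05 for Tcrg-C1, −0.93 for Il2rb, −0.78 for Cd244a, −0.64 for Il2rg, −0.35 for Itgb7 and 0.00 for Ccr9. Ccr9, the receptor for Ccl25, was thus nearest to 0 of the list in both tissues (adjusted p = 0.55 in the ileum and 1 in the duodenum). The median over the list was −0.79 in the ileum and −0.91 in the duodenum. DESeq2 called 4 receptors in each tissue, and limma-voom called 4 in the ileum and 2 in the duodenum. Whether the receptors changed more than the epithelial members was not tested. The calls rest on few libraries: with each library left out in turn, edgeR kept Tcrg-C1 called in 5 of 8 ileal fits, Il2rb in 3 and Il2rg in 3, and in the duodenum Itgae in 3 of 8 and Tcrg-C2 in 0 of 8. All 3 ileal calls were lost without control NF17, control NF32 or mutant NFVCT38, and that of Itgae without any 1 of the 4 controls or NFVCT38. Without the ileal library of NFVCT27, 6 of the 9 receptors were called lower with a median of −1.09, and without the duodenal library of NFVCT190 only Itgae was.

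**Figure D2:**
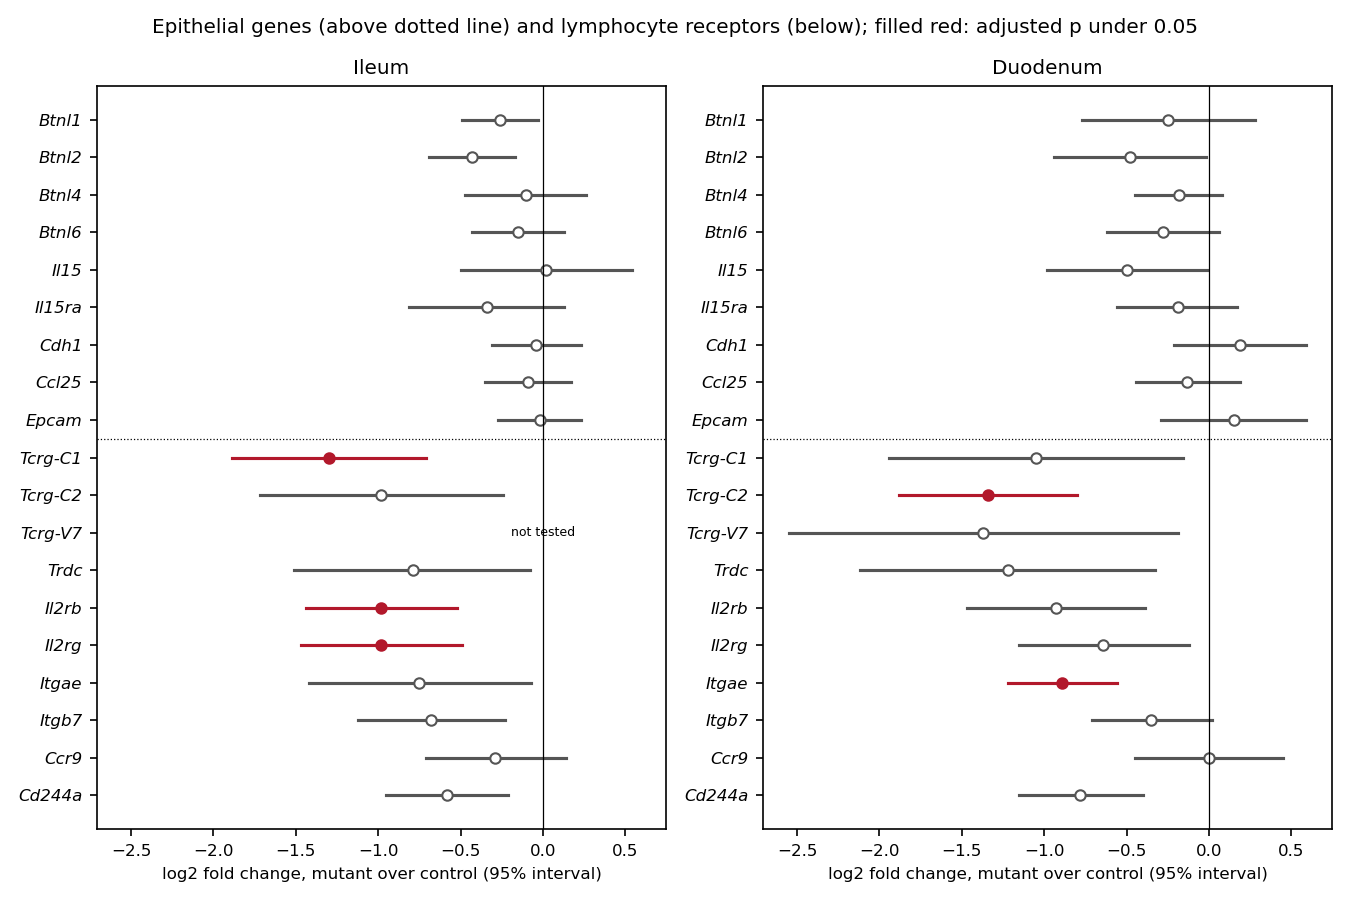
Log2 fold change of mutants over controls with its 95% interval for the 9 epithelial genes (above the dotted line) and the 10 genes of the lymphocyte receptor list (below it), in the ileum (left) and duodenum (right); filled red points have an adjusted p under 0.05. The intervals of the epithelial genes lie between −0.98 and 0.59, and the 5 filled points are all receptors on the negative side.

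Among 17 further genes of intraepithelial lymphocytes, 2 were called lower in the ileum and 3 of the 16 tested in the duodenum. Cd3e, a chain common to T cell receptors, had a log2 fold change of −1.90 in the ileum (SE 0.38, adjusted p = 0.0128) and −1.80 in the duodenum (SE 0.28, adjusted p = 0.0193). Klrd1, a natural killer receptor chain also carried by these T cells, had −1.94 in the ileum (SE 0.32, adjusted p = 0.00452) and −1.55 in the duodenum (SE 0.28, adjusted p = 0.0412). Nkg7, a cytotoxic granule protein, was called in the duodenum (−1.53, SE 0.25, adjusted p = 0.0299). The summed level was 163, 41.6, 32.1 and 77.6 CPM in ileal mutants and 154, 213, 184 and 118 CPM in ileal controls, so that NFVCT27 lay within the range of the controls and the other 3 mutants below it. In the duodenum the sums were 153.03, 98.6, 116 and 48.2 CPM in mutants and 271, 363, 313 and 252 CPM in controls, with every mutant below every control. DESeq2 called 3 of 17 in the ileum and 11 of 16 in the duodenum, and limma-voom called 4 and 1. Without NFVCT27, 8 of the 17 genes were called lower in the ileum, and without NFVCT190, 2 of 16 in the duodenum with a median of −1.09 (−1.21 with it). With each library left out in turn, both ileal calls held in 8 of 8 fits, while in the duodenum Cd3e and Nkg7 were called in 2 of 8 and Klrd1 in 1 of 8.

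Of 15 interferon-response genes, many of which answer to lymphocyte-derived interferon, some were called lower in each tissue. In the duodenum 4 of 15 were called: the GTPase Iigp1 (−1.78, SE 0.21, adjusted p = 0.00303), the chemokine Cxcl9 (−1.71, SE 0.26, adjusted p = 0.0171), the GTPase Gbp4 (−1.21, SE 0.21, adjusted p = 0.0375) and Nlrc5, an activator of class I genes (−1.55, SE 0.27, adjusted p = 0.045). In the ileum 3 of 15 were called: Gbp4 (−1.24, SE 0.22, adjusted p = 0.00721), Ciita, the class II activator (−1.27, SE 0.23, adjusted p = 0.0142), and the chemokine Cxcl10 (−1.25, SE 0.31, adjusted p = 0.0418). All 15 had values below 0 in both tissues, with medians of −1.07 in the ileum and −1.01 in the duodenum. DESeq2 called 12 of the 15 in each tissue, and limma-voom called 2 in the ileum and 3 in the duodenum. Without NFVCT27, 4 were called in the ileum with a median of −1.26, and without NFVCT190, 3 in the duodenum with a median of −0.92. Of the members, Il15ra and Il15 are known interferon-responsive genes, and neither was called. On leaving out single libraries, Iigp1 in the duodenum and Gbp4 in the ileum were called in 8 of 8 fits, Ciita in 7, Cxcl9 in 4, and Nlrc5, duodenal Gbp4 and Cxcl10 in 1 each.

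**Figure D3:**
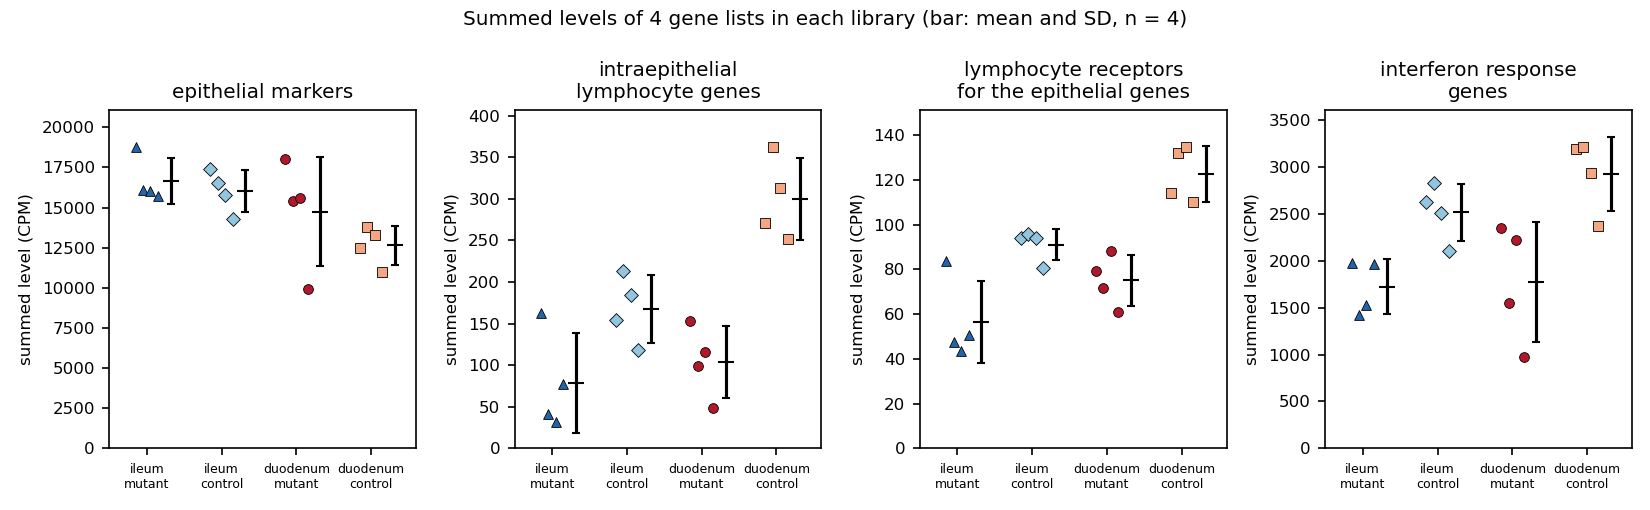
Summed level in CPM of 4 gene lists in each library, with ileal mutants, ileal controls, duodenal mutants and duodenal controls from left to right; each point is 1 library and the bar gives the mean and SD of 4. Duodenal mutants lie below all duodenal controls for lymphocyte genes (48.2 to 153.03 CPM) and interferon genes (976 to 2350 CPM), while 3 of the 4 lie above all of them for epithelial markers. The interferon sum is mostly the single gene B2m.

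The other parts of the same pathways held few calls, and the lists were drawn up with earlier results of these data known. Among other epithelial signals to lymphocytes, 1 of 16 was called in the ileum, the cytokine Il18, at 85.6 CPM on average in mutants and 39.6 CPM in controls (1.09, SE 0.19, adjusted p = 0.0122). In the duodenum 0 of 16 were called by edgeR and DESeq2, with 4 at an unadjusted p under 0.05, led by the checkpoint ligand Cd274 (−0.76, adjusted p = 0.425) and H2-T3, the thymus leukaemia antigen that binds CD8 (−0.44, adjusted p = 0.454). Among the genes of IL-15 signalling 0 of 13 were called in either tissue by edgeR; DESeq2 called Irf1 in each, and the unadjusted count was 2 in the ileum and 1 in the duodenum. The smallest p-values there were those of the feedback inhibitor Socs1 (−0.99 in the ileum, adjusted p = 0.149, and −0.82 in the duodenum, adjusted p = 0.584) and of Irf1, a transcription factor of interferon signalling (−0.62, adjusted p = 0.188, and −0.63, adjusted p = 0.207).

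Among partners of E-cadherin 0 of 11 were called in either tissue, also by DESeq2, with 3 at an unadjusted p under 0.05 in the ileum and 1 in the duodenum. Pkp3, a desmosomal plaque protein, had 0.34 in the ileum (adjusted p = 0.204) and 0.27 in the duodenum (adjusted p = 0.718), and the linker genes Afdn in the ileum (0.26, adjusted p = 0.22) and Vcl in the duodenum (0.23, adjusted p = 0.5) were next. Of the genes tied to Epcam, Cldn15, which forms paracellular sodium channels, was called higher in the ileum (432 CPM on average in mutants and 276 CPM in controls, 0.63, SE 0.11, adjusted p = 0.00624), as 1 of 10. In the duodenum 0 of 10 were called by edgeR and DESeq2, with 1 at an unadjusted p under 0.05, the tetraspanin Tspan8 (0.48, adjusted p = 0.303), ahead of Cd9 (0.23, adjusted p = 0.624). Of 9 junction genes used by migrating lymphocytes 0 were called in either tissue by edgeR or DESeq2 and 0 had an unadjusted p under 0.05. Jaml (0.24, adjusted p = 0.447) and Cgn (0.16, adjusted p = 0.588) led in the ileum, and Ocln had 0.09 in the duodenum (adjusted p = 0.915).

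Homing genes other than Ccl25 included 3 of 17 called lower in the ileum, among them the lymphocyte receptor Cxcr6 (−0.95, SE 0.21, adjusted p = 0.0224) and the chemokine Cxcl10 given above. In the duodenum 1 of 17 was called, Cxcl9, also given above. Il18 and Cldn15 were called in 8 of 8 fits that left out 1 library, and Cxcr6 in 3 of 8. Of 10 other butyrophilin and related genes in the table only Btnl9 and Cd276 had enough counts to be tested, and neither was called in either tissue by edgeR or DESeq2, nor at an unadjusted p under 0.05: Btnl9 had 0.44 in the ileum and 0.33 in the duodenum, and Cd276 had 0.06 and −0.24. Another list of 7 held Ahr, which encodes the aryl hydrocarbon receptor, a factor that maintains these lymphocytes, its partner gene Arnt, and target genes. Of these, edgeR called 0 of 7 in either tissue, with an unadjusted p under 0.05 for 2 in each. DESeq2 called Tiparp in the ileum (0.42, adjusted p = 0.0589 with edgeR), where Cyp1b1 followed (0.35, adjusted p = 0.155). In the duodenum Ahrr (−0.76, adjusted p = 0.21) and Cyp1a1 (−2.36, SE 0.88, adjusted p = 0.492) had the smallest p-values.

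Transcription factors known to act on enterocyte genes, and partly on the Btnl genes, gave 0 of 12 called in either tissue by edgeR. At an unadjusted p under 0.05 there were 2 in the ileum and 1 in the duodenum, and DESeq2 called Cdx1 in the duodenum. In the ileum the log2 fold changes included −0.37 for Hnf4g (adjusted p = 0.238), −0.34 for Maf (adjusted p = 0.119), 0.24 for Gata6, 0.24 for Elf3, 0.21 for Cdx2, 0.12 for Klf5, 0.10 for Hnf4a, −0.09 for Gata4, −0.09 for Prdm1 and 0.00 for Cdx1. In the duodenum they included 0.33 for Cdx1 (adjusted p = 0.21), 0.17 for Cdx2, 0.17 for Gata6, 0.09 for Hnf4a, 0.03 for Klf5, 0.00 for Prdm1, −0.01 for Elf3, −0.09 for Gata4, −0.11 for Hnf4g and −0.17 for Maf. Hnf4a and Hnf4g, whose type of site was searched in the promoters, averaged 971 and 231 CPM in ileal mutants and 893 and 295 CPM in ileal controls.

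The clearest differences among the members were between the tissues. Btnl2 was lower in the ileum than in the duodenum in both genotypes, with a log2 fold change of −1.04 in mutants (SE 0.19, interval −1.47 to −0.62, adjusted p = 0.00195) and −1.08 in controls (SE 0.14, interval −1.38 to −0.78, adjusted p = 5.87e-05). Every ileal library lay below every duodenal library of its genotype, and the call held in all 8 fits that left out 1 library, in each genotype. Btnl1 had −0.63 in mutants (SE 0.22, interval −1.10 to −0.15, adjusted p = 0.0442) and −0.60 in controls (SE 0.14, interval −0.90 to −0.30, adjusted p = 0.00437). The control libraries of Btnl1 did not overlap and the call held in all 8 fits, whereas the mutant call was lost on leaving out any library but the duodenal one of NFVCT190 (adjusted p from 0.0575 to 0.147), with RLE size factors (0.0509) and with limma-voom (0.0837), and, with the animal as a replicate block, had an adjusted p of 0.0678. NFVCT190, low for Btnl1 in the duodenum, overlapped the ileal mutants.

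Btnl6 and Btnl4 were not called between tissues. Btnl6 had 0.00 in mutants (SE 0.17, interval −0.36 to 0.37, adjusted p = 0.99) and −0.12 in controls (SE 0.12, interval −0.37 to 0.14, adjusted p = 0.475). Btnl4 had −0.15 in mutants (SE 0.16, interval −0.50 to 0.21, adjusted p = 0.522) and −0.21 in controls (SE 0.13, interval −0.50 to 0.07, adjusted p = 0.233). The calls on these 2 genes depended on the scaling in controls: with libraries scaled to the epithelial markers, which shifted the median of all genes by −0.33, Btnl4 stood at −0.56 (adjusted p = 0.00242) and Btnl6 at −0.44 (adjusted p = 0.00816). Ratios between members are free of scaling. The count ratio of Btnl2 to Btnl6 was 0.144 to 0.261 in ileal mutants against 0.279 to 0.45 in duodenal mutants, and 0.187 to 0.296 in ileal controls against 0.415 to 0.517 in duodenal controls. The ratio of Btnl4 to Btnl6, by contrast, was 0.207 to 0.273 in ileal mutants and 0.22 to 0.287 in duodenal mutants, and 0.181 to 0.267 in ileal controls and 0.204 to 0.258 in duodenal controls. That of Btnl1 to Btnl6 also overlapped, at 0.749 to 1.13 in ileal and 0.878 to 1.73 in duodenal mutants. In controls it was 0.861 to 1.28 in the ileum and 1.11 to 1.59 in the duodenum. Btnl1 to Btnl2 did not overlap, with 4.32 to 5.19 in ileal and 3.14 to 3.83 in duodenal mutants. Its control values were 3.81 to 5.0 in the ileum and 2.67 to 3.52 in the duodenum.

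Il15 and Il15ra were called between tissues in 1 genotype each, and these calls depended on the processing. Il15 had −0.11 in mutants (SE 0.26, interval −0.68 to 0.46, adjusted p = 0.777) and −0.62 in controls (SE 0.21, interval −1.06 to −0.17, adjusted p = 0.0321). The control call of Il15 was lost without the ileal library of NF17, NF29 or NF32 or the duodenal library of NF17 or NF29 (adjusted p from 0.0545 to 0.103), and its adjusted p was 0.0657 with the animal as a replicate block. Il15ra had −0.62 in mutants (SE 0.18, interval −1.02 to −0.23, adjusted p = 0.0214) and −0.46 in controls (SE 0.21, interval −0.91 to −0.01, adjusted p = 0.0991). The mutant libraries of Il15ra did not overlap, and its call was lost without the ileal library of NFVCT38 or of NFVCT190 (adjusted p = 0.0657 and 0.0607). It was also lost with libraries scaled to the epithelial markers (−0.87, adjusted p = 0.0573). In controls Il15ra was called without the ileal library of NF29 (−0.68, adjusted p = 0.0121), with limma-voom (−0.57, adjusted p = 0.0392) and scaled to the epithelial markers (−0.81, adjusted p = 0.0135). The tests of the difference between the genotypes, given above for these genes as ileum minus duodenum, called neither.

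Epcam was the 1 member called higher in the ileum, in controls (0.47, SE 0.14, interval 0.16 to 0.78, adjusted p = 0.0204), and its value in mutants was 0.29 (SE 0.18, interval −0.11 to 0.69, adjusted p = 0.25). Ileal and duodenal libraries of Epcam did not overlap in either genotype. In controls the call was lost without the ileal library of NF17 or NF152 or the duodenal library of NF17 (adjusted p from 0.052 to 0.0654), and scaled to the epithelial markers the value was 0.14 (adjusted p = 0.468). Ccl25 had −0.29 in mutants (SE 0.14, interval −0.60 to 0.01, adjusted p = 0.13) and −0.31 in controls (SE 0.13, interval −0.60 to −0.03, adjusted p = 0.0761). With the animal as a replicate block the control value of Ccl25 was called (−0.32, adjusted p = 0.0382), and DESeq2 also called it (adjusted p = 0.0457). Leaving out the ileal library of NF152 in controls (−0.40, adjusted p = 0.0405) or the duodenal library of NFVCT190 in mutants (−0.37, adjusted p = 0.0412) also gave a call for Ccl25. Scaled to the epithelial markers, its control value was −0.65 (adjusted p = 0.00261). Cdh1 had −0.04 in mutants (SE 0.16, interval −0.39 to 0.31, adjusted p = 0.859) and 0.20 in controls (SE 0.16, interval −0.14 to 0.53, adjusted p = 0.339).

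**Figure D4:**
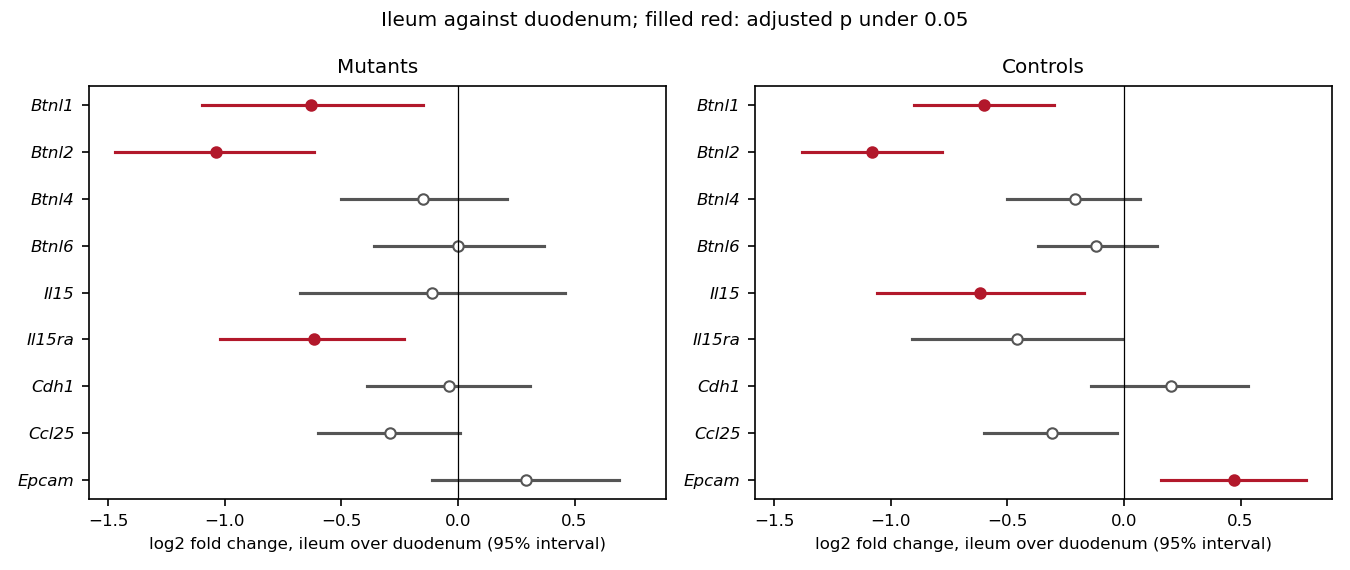
Log2 fold change of ileum over duodenum with its 95% interval for the 9 genes, in mutants (left) and controls (right); filled red points have an adjusted p under 0.05. Btnl1 and Btnl2 are filled on the negative side in both panels, while the intervals of Btnl4, Btnl6 and Cdh1 span 0 in both.

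These shares can be read against those of all genes. In mutants 3 of 9 members were called (3 lower, 0 higher), where 32.3% of all genes were called (17.1% lower and 15.2% higher). In controls 4 of 9 were called (3 lower, 1 higher), where 35.9% of all genes were called (18.7% lower and 17.1% higher). Groups without overlap were found for 3 members in mutants (Btnl2, Il15ra and Epcam) and 3 in controls (Btnl1, Btnl2 and Epcam), beside 32.7% and 34.6% of all genes. The tissues also differed in other content: acinar genes were lower and smooth muscle genes higher in the ileum in both genotypes, with medians of −5.22 and 1.33 in mutants and −4.55 and 1.05 in controls. Of the lymphocyte receptors 3 of 10 were called in controls, all lower in the ileum, and the list's median between tissues was −0.37 in mutants and −0.42 in controls. Their part in the members' values was not tested, and removing the acinar genes before scaling changed no member's call.

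Of the 12 transcription factors, 6 were called between tissues in each genotype. Gata4, which marks the proximal small intestine, had −3.20 in mutants (SE 0.15, adjusted p = 1.5e-07) and −3.18 in controls (SE 0.29, adjusted p = 6.7e-05). Gata6 had −0.91 (adjusted p = 0.000142) and −0.98 (adjusted p = 0.000133), Cdx1 had 0.49 (adjusted p = 0.00835) and 0.83 (adjusted p = 8.34e-05), and Maf had 0.72 (adjusted p = 0.00288) and 0.90 (adjusted p = 0.00033). Hnf4a had 0.36 in both and was called in neither (adjusted p = 0.0875 and 0.0629), and Hnf4g had −0.58 in mutants (adjusted p = 0.0116) and −0.31 in controls (adjusted p = 0.117).

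Within the family, the highest correlations across libraries were those of Btnl1 with Btnl2 and of Btnl4 with Btnl6. Over the 16 libraries the Pearson correlation of log2 CPM was 0.93 between Btnl1 and Btnl2, and 0.87 once group means were removed. Btnl4 and Btnl6 correlated at 0.67, and at 0.65 within groups. Outside the family, Btnl6 correlated more highly with Il15 (0.73, and 0.72 within groups) than with Btnl4, and Btnl1 correlated with Ccl25 at 0.82 (0.64 within groups). Other pairs of the family had lower values: Btnl1 with Btnl4 gave 0.32 (−0.07 within groups), Btnl1 with Btnl6 0.43 (0.35 within groups), and Btnl2 with Btnl6 0.40 (0.35 within groups). These are descriptions over libraries that share depth, tissue content and, in pairs, the animal, and the shared windows of Btnl4 and Btnl6 could raise their correlation. Within groups Btnl1 and Btnl2 each followed the sum of the epithelial markers at 0.77, as did Epcam at 0.72, whereas Btnl4 stood at 0.16 and Btnl6 at 0.19. Their values with the sum of the interferon-response genes were 0.74 for Btnl1, 0.73 for Btnl2, 0.77 for Epcam, 0.35 for Btnl4 and 0.44 for Btnl6. That sum is mostly the single gene B2m, so these values describe B2m more than the list. B2m averaged 1220 of 1720 CPM in ileal mutants and 1550 of 2520 CPM in ileal controls. In the duodenum it averaged 1280 of 1770 CPM in mutants and 1990 of 2930 CPM in controls. The duodenal library of NFVCT190 had the lowest epithelial marker sum, Btnl1, Btnl2 and Epcam of its group, and correlations without it were not computed. With the sum of the intraepithelial lymphocyte genes the within-group values were 0.44 for Btnl1, 0.35 for Btnl2, 0.55 for Btnl4 and 0.38 for Btnl6.

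**Figure D5:**
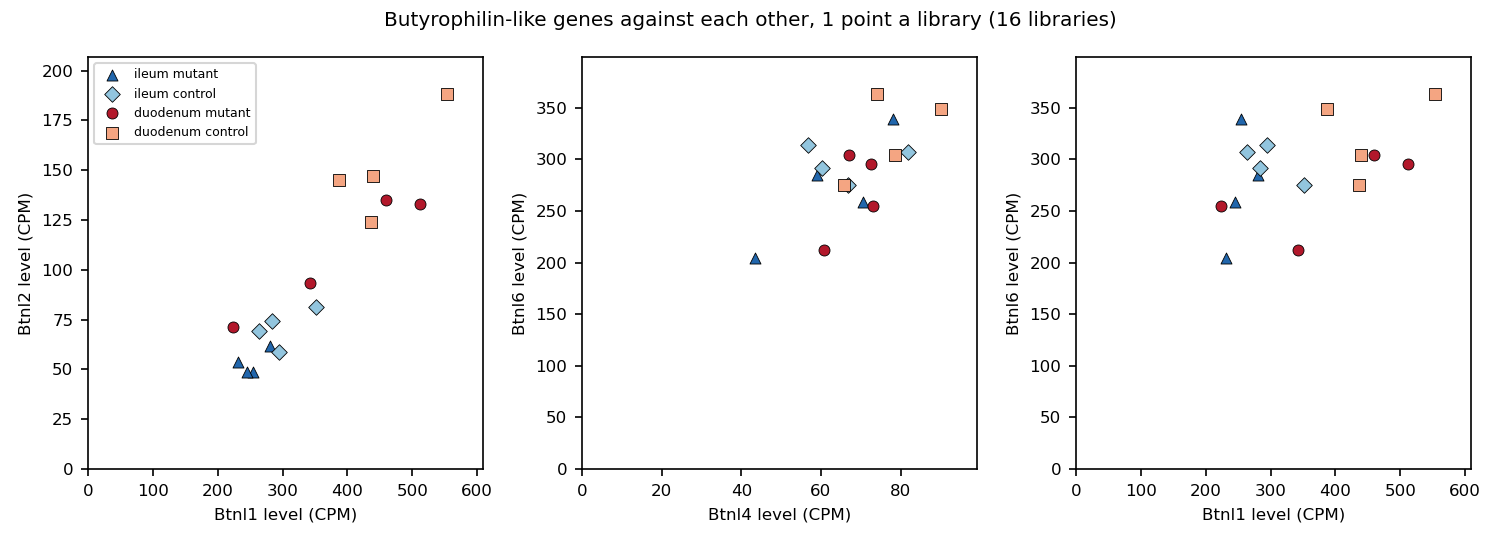
Levels in CPM of Btnl2 against Btnl1 (left), Btnl6 against Btnl4 (middle) and Btnl6 against Btnl1 (right), 1 point per library over 16 libraries, with symbols by tissue and genotype. Btnl1 and Btnl2 run along 1 line, with the duodenal libraries other than that of NFVCT190 toward its upper end, whereas the points of Btnl6 against Btnl1 scatter more widely (r = 0.43, against 0.93).

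The genes whose pattern over the 16 libraries was most like that of a member were searched among 14242 genes with a mean of at least 1 CPM. For Btnl1 they were Mdh1 (r = 0.973), Gm11127 (0.969), Ggt1 (0.947), Gm8909 (0.944) and Decr2 (0.941). For Btnl6 the list held both pseudogenes of its own cluster, Btnl5-ps (0.898) and Btnl7-ps (0.816), with Lrrc57 (0.868), Slc30a5 (0.791) and Ccdc90b (0.787). Ndfip2 (0.904), Rdh14 (0.875), Tubal3 (0.873), Ccdc28a (0.871) and Stx12 (0.854) were nearest to Il15. Ccl25 was nearest to Ndufb3 (0.933), Sult1b1 (0.931), Mtch2 (0.926), Fahd1 (0.918) and Iyd (0.916). With so many candidates and 16 libraries, values of this size describe the libraries only.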

How the data were processed

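The authors deposited raw read counts per Ensembl gene, per the file headers, in 1 column for each library. The labels' protocols describe stranded libraries from ribosome-depleted total RNA, amplified by PCR, and mention no molecular identifiers. The submitters' processing notes list the build mm39 and, in no given order, HTSeq 0.6.1p1, STAR 2.5.3a, Bowtie2 2.2.8, cutadapt 1.10 and bcl2fastq 2.20.0.422. The role of each tool, the strand setting and the annotation are not given in these sources. Symbols were matched by identifier for 52083 of 55359 genes, which carry 98.3% of counts.

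Counts were tested with edgeR 4.0.16 under R 4.3.3, using TMM scaling, removal of genes with low counts in every group, and the robust quasi-likelihood F test. Adjusted p-values are Benjamini-Hochberg values over all genes tested in a comparison; where no tool is named, an adjusted p is edgeR's. Genes with an adjusted p under 0.05 are termed called. SE is the log2 fold change over the square root of F. CPM values use TMM factors over all 16 libraries and can differ slightly from the fitted fold changes. Genotype was tested within a tissue (8 libraries), tissue within a genotype (8), and the difference of the genotype effects over all 16. The code was tested on simulated data. Il15 and Il15ra, the least abundant members, had 43 to 377 and 47 to 238 counts in a library, so their values are the least precise.

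Libraries of the same animal deviated together, with a correlation of deviations from group means of 0.127 to 0.312 in all 8 animals; 7 of 8 correlated best with their own other library, and NF32 correlated at 0.184 with its own and at 0.205 with another animal's. The pairing comes from the animal names in the labels, and the animal entered as a replicate block is the paired alternative. P-values for genotype within a tissue measure the spread between animals. Those between tissues and for the difference of the effects treat the libraries of an animal as independent, except with the replicate block. Alternatives were RLE size factors, no filter, DESeq2 1.42.0, limma-voom (limma 3.58.1), removal of acinar genes, scaling to epithelial markers, acinar or smooth muscle sums as covariates, all libraries in 1 fit, and leaving out each library. The members, lists and tests were chosen with earlier results of these data known. Named from each list were the called genes, up to 4 per tissue, or else the 2 of smallest p, all receptors and transcription factors that were tested, and the 5 genes most like each of 4 members; a few genes that this rule names are not reported here. Exon lengths are from GENCODE M21. No genome of the files' build was used.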

Additional observations from a re-analysis of the deposited data

Results flagged for a closer look

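Groups of 4 libraries were flagged by Dixon's test, which divides the gap between an extreme library and its nearest neighbour by the group's range. No group of any member was flagged, in 36 groups examined. Epcam in duodenal mutants was not flagged, although NFVCT190 had 972 CPM against 1530, 1430 and 1470 CPM in the other mutants. Of 40 groups of summed lists, 2 were flagged, where chance gives about 1 in 20. The summed lymphocyte receptors in ileal controls were 80.6 CPM in NF152, against 94.2, 95.7 and 94.1 CPM in the other 3 controls. NF152 is also the control whose Btnl2 lay within the range of the ileal mutants. The summed epithelial markers in ileal mutants were 18800 CPM in NFVCT27, against 16100, 16000 and 15700 CPM in the other 3 mutants. The same library held the highest sum of intraepithelial lymphocyte genes among the ileal mutants (163 CPM).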

How the results depend on the processing

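The number of genes called by genotype in the duodenum (58) was 169 with no filter on low counts, 310 with DESeq2, 140 scaled to epithelial markers, 151 with all 16 libraries in 1 fit and 36 with the smooth muscle covariate, and 27 (without NFVCT38) to 61 on leaving out 1 library. In the ileum (490) it was 1096, 875 and, with the smooth muscle covariate, 21, and 272 (without NFVCT38) to 472 on leaving out 1 library. Members called in the ileum (0) became 1 with no filter, with DESeq2 and without control NF152. They stayed at 0 in the other 7 fits that left out 1 library and in all remaining alternatives. For the difference of the effects (7 genes) the counts were 15 with no filter, 38 with DESeq2, 17 scaled to epithelial markers and 16 with the animal as a replicate block, and 3 to 13 on leaving out 1 library. Between tissues, scaling to epithelial markers gave 7 members called in controls (4 without it) and 2911 genes in mutants (4833 without it). Leaving out 1 library gave 2 to 4 members called in controls and 1 to 4 in mutants. No other call on a member changed under the replicate block than those given for Btnl1, Il15 and Ccl25 between tissues. The cause of these shifts was not tested.

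Some signs turned. Scaled to epithelial markers, genotype gave −0.05 for Epcam in the duodenum and −0.02 for Il15 in the ileum, and tissue gave −0.14 for Cdh1 in controls and −0.19 for Btnl6 in mutants. With the smooth muscle covariate the ileal genotype values were 0.36 for Btnl4, 0.31 for Btnl6, 0.19 for Il15ra, 0.26 for Ccl25, 0.16 for Epcam and −0.00 for the muscle gene Synm. That covariate separates the genotypes in the ileum, as given above. The difference of the effects for Btnl1 was −0.01 with RLE and DESeq2 and −0.03 with no filter or acinar genes removed. Btnl6 between tissues in mutants was −0.02 with no filter, −0.01 with limma-voom and −0.00 with the replicate block. On leaving out 1 library, the difference of the effects ran from −0.21 to 0.16 for Btnl1, −0.11 to 0.19 for Btnl2, −0.02 to 0.24 for Btnl4, −0.05 to 0.14 for Ccl25 and −0.27 to 0.09 for Il15ra. The ileal genotype value ran from −0.23 to 0.03 for Btnl4, −0.12 to 0.02 for Cdh1, −0.09 to 0.02 for Epcam and −0.17 to 0.21 for Il15. Tissue in mutants ran from −0.11 to 0.11 for Btnl6, −0.11 to 0.03 for Cdh1 and −0.30 to 0.08 for Il15. Of 783 alternative values of the members, 695 kept their direction and side of the threshold.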
